A study of Mus musculus with 29 samples.

Results

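How the effect of losing RAGE differed between young and old hearts was read from 21 of the 29 arrays of the series. For each probe the *Rage-/-* minus WT difference in Young mice was subtracted from the same difference in Old mice. That quantity, the interaction of genotype and age, is called here the age shift of the *Rage-/-* effect, and it was estimated for all 13277 tested probes. RNA came from the left ventricle of female mice whose hearts had been perfused with phosphate-buffered saline, and each mouse had 1 Illumina MouseWG-6 array. The Young groups (10 weeks) held 5 WT and 5 *Rage-/-* mice, and the Old groups (21 months) held 5 WT and 6 *Rage-/-* mice. The 8 mice of middle age (MA, 12 months, 4 of each genotype) are no term of the contrast, but their arrays shared the normalization, the detection filter, the surrogate variables and the estimate of the spread. With the 21 arrays alone, also with 5 surrogate variables, 42 probes passed the test, 27 of them among the 30 reported here. All mice are labelled C57BL/6N, and no drug or diet was compared. The WT mice came from a commercial breeder, and the sources used here do not say that the genotypes were littermates. *Ager*, the gene of RAGE, is annotated to no tested probe, and the labels were therefore not checked by its level.

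RAGE is a cell surface receptor that binds glycated proteins, S100 proteins and HMGB1 and passes the signal to NF-kappaB and other pathways of inflammation. It is studied in the heart because glycated proteins gather in tissue with age. Interferons, released in response to infection, act through cell surface receptors. STAT2 and IRF9 take part in binding at the interferon-stimulated response element (ISRE), and the gamma-activated site (GAS) is the DNA element of the response to interferon gamma. The genes these elements serve include immunity-related GTPases, antiviral proteins and the MHC class I machinery that shows peptides to T cells.

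Of the 26 named genes that passed the test, 14 are in lists of interferon or MHC genes. Those lists were chosen with earlier results of these data known. The promoter letters of 4 of the 14 are shown first. The sequences are from RefSeq (GRCm38.p6), end at the base before the annotated start, run 5′ to 3′ on the gene's strand and hold 170 bases each. Capitals mark the ISRE core searched (GAAANNGAAA or, on the other strand, TTTCNNTTTC) and the GAS core (TTCNNNGAA, the same on both strands).
*Igtp* (chr11:58199386-58199555, plus strand): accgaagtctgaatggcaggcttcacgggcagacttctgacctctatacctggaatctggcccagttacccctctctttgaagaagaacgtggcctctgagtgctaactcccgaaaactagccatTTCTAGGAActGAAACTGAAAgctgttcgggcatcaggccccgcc
*Irgm2* (chr11:58214807-58214976, plus strand): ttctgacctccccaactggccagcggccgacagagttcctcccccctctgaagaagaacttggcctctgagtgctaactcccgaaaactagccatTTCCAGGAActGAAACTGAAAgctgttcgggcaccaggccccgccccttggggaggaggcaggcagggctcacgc
*Irgm1* (chr11:48871421-48871590, minus strand): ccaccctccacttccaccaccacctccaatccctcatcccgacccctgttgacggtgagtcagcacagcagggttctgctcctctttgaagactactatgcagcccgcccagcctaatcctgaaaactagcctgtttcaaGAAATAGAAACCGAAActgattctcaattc
*Ifit3* (chr19:34583359-34583528, plus strand): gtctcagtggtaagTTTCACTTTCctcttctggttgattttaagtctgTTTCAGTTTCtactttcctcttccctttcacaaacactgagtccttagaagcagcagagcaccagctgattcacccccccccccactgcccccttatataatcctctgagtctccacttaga

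The ISRE core began 34 bases before the start of *Igtp* and 64 bases before that of *Irgm2*, in each case with 2 bases between it and a GAS core upstream. In *Irgm1* it matched at 30 and 24 bases before the start, in 2 overlapping copies, and in *Ifit3* at 156 and 122 bases before it. The *Igtp* and *Irgm2* windows shared a run of 38 bases without a difference. RefSeq windows from 250 bases before to 50 after the start were matched to 16 of the 24 named genes with a positive age shift. The ISRE core was in 6 of them, the other 2 being *Stat2* and *Fcgr4*, against 3.99% of 27025 genes with a window. The GAS core was in 4 of the 16 (*Igtp*, *Irgm2*, *Icam1* and *Vmn1r65*) against 9.55% of all. A match describes the letters and is no measured binding site.

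Bright probes stood 2.96 to 16.8 times over background among the 29 arrays, with group medians of 15.7 in Old WT, 6.09 in Old *Rage-/-*, 5.51 in Young WT and 5.29 in Young *Rage-/-*. The arrays lay on 6 BeadChips, slides that hold 6 arrays each. Of the Old mice, 4 of 5 WT and 2 of 6 *Rage-/-* were on 2 BeadChips of a later barcode series, which held no other age. Among the measured cardiomyocyte markers (7 of 8), none was called. Their summed intensity had a median of 87300 in Old WT (82200 to 131000), against 131000 in Old *Rage-/-* (91700 to 143000), 131000 in Young WT (115000 to 141000) and 136000 in Young *Rage-/-* mice (124000 to 147000). The 6 measured smooth muscle and pericyte markers of 8 likewise had their lowest median in Old WT, 3480 against 5780 to 6660 in the other Young and Old groups, with overlapping ranges. The part of this in the age shift was not tested. Values are log2 intensities after background correction and quantile normalization (neqc), and mean ± SD is over mice. Estimates come from limma with the 6 groups and 5 surrogate variables, which stand for unwanted variation, so they can differ from the plain difference of group means. Called means a two-sided p under 0.05 after Benjamini-Hochberg adjustment over the 13277 probes, and p values in the text are such adjusted limma p values unless called unadjusted.

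The age shift passed the test for 30 probes, 0.226% of those tested, with 1080 at an unadjusted p under 0.05. It was positive for 28 (0.211%) and negative for 2 (0.0151%). A positive shift means that the *Rage-/-* minus WT difference was higher in Old than in Young mice. The 30 probes stand for 26 named genes, with 3 probes that the platform's annotation ties to no gene. The positive shifts ran from 1.12 for *Dtx3l*, a ubiquitin ligase, to 3.52 for *Igtp*, an immunity-related GTPase, with a median of 1.84 against 0.01 over all probes. These sizes depend on the normalization. With the authors' normalized values 27 of the 30 were called in the same direction, all but *Cd72*, *Gm4951* and *Dtx3l*. But for 28 of the 30 the shift printed here is over 1.5 times the size found there, by a median of 2.73 times (1.14 to 8.24).

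All 28 positive probes were estimated lower in *Rage-/-* than in WT among Young mice, with a median of -1.43, and 24 of them were called there (0.678% of all probes were called in Young mice). In Old mice their median difference was 0.41, above 0 for 27 of 28, and 2 were called (0.0527% of all probes were called in Old mice). In plain group means 6 of the 28 were lower in Old *Rage-/-* than in Old WT mice. Of these only *H2-Q5* was also below 0 in the fit, so for the other 5 the Old sign rests on the surrogate variables. The size of the Young difference exceeded that of the Old difference for 24 of the 28. All 5 Young *Rage-/-* mice were below all 5 Young WT mice for 24 of the 28 probes, against 0.904% of all probes. All 6 Old *Rage-/-* mice were above all 5 Old WT mice for 2 of the 28, against 0.618%. The 28 probes were chosen by a test that used these same mice. The counts in this and the next paragraph therefore describe the probes and are no added evidence.

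**Figure D1:**
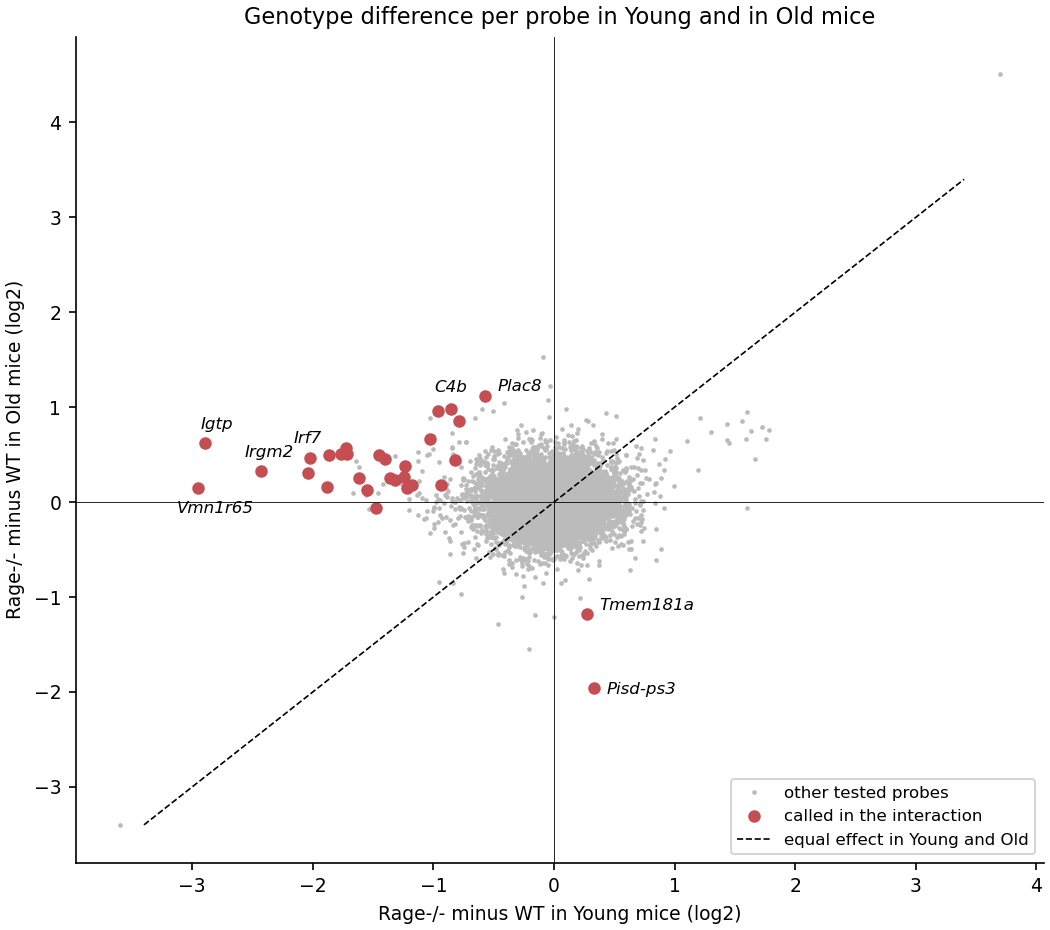
*Rage-/-* minus WT difference of each tested probe in Young mice (x axis, log2) and in Old mice (y axis, log2), with the 30 called probes in red and the dashed line marking equal effects. The 28 positive probes lie left of 0 on the Young axis, from -2.95 to -0.57, and *Tmem181a* and *Pisd-ps3* lie below 0 on the Old axis.

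The same estimate can be read as the age change in *Rage-/-* minus that in WT. Read so, the calls of the 28 positive probes did not overlap: 22 were called as falling from Young to Old in WT mice and 6 as rising in *Rage-/-* mice. The estimates were less clear-cut. *Irf7*, of the 22, also changed by 0.85 in *Rage-/-* mice (adjusted p = 0.12), and *Ccl9*, of the 6, by -0.51 in WT mice (adjusted p = 0.56). The test called 0.859% of all probes for the age change in WT and 3.68% for that in *Rage-/-* mice. No probe of the 28 was called in both. No BeadChip held both Young WT and Old WT mice, so age and BeadChip cannot be told apart in the WT age change. For the 22, Young WT was the group with the highest mean of the 4. In 11 of the 22 all 5 Young WT mice were above all 16 other Young and Old mice. Within Young WT, mouse 5 was the highest for 18 of the 22 and mouse 4 the lowest for 19. The shares of all probes with these patterns were not counted.

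Immunity-related GTPases, which attack the vacuoles of intracellular parasites, had 2 of the 3 largest positive shifts. *Igtp* was at 10.92, 11.03, 10.32, 9.96 and 11.42 in the 5 Young WT mice and at 7.51, 8.13, 8.07, 7.43 and 7.79 in the 5 Young *Rage-/-* mice. In Old WT mice it was at 7.39, 7.72, 7.62, 7.12 and 7.45, and in Old *Rage-/-* mice from 7.50 to 8.79 with a median of 7.94. Young WT mice thus stood apart from all others, while the 2 Old groups overlapped. The *Rage-/-* effect on *Igtp* was -2.90 ± 0.30 (SE) in Young and 0.62 ± 0.32 in Old mice, an age shift of 3.52 ± 0.42 (adjusted p = 0.00017), which is an 11.5-fold change of the ratio between genotypes. With the authors' normalized values the shift of *Igtp* was 2.26, a 4.79-fold change.

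*Irgm2*, which regulates the effector GTPases, was at 11.29 ± 0.64 in Young WT and 8.80 ± 0.29 in Young *Rage-/-* mice (n = 5 each). In Old mice it was at 8.58 ± 0.15 in WT (n = 5) and 8.85 ± 0.27 in *Rage-/-* (n = 6). The age shift was 2.75 ± 0.35 (adjusted p = 0.00028). The third regulator, *Irgm1*, has 2 tested probes that differed. The called one had a shift of 2.35 ± 0.44 (adjusted p = 0.016) but a mean intensity of 6.41 and detection on 21 of 29 arrays. The brighter one, detected on all 29 arrays at a mean of 11.1, had a shift of 0.28 (adjusted p = 0.75). Its Young difference was -0.75 (adjusted p = 0.0050) and its Old difference -0.47 (adjusted p = 0.56), both below 0.

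Among the measured receptors, signal proteins and transcription factors of the interferon response, 3 of 18 were called. *Stat2*, a transcription factor, was at 7.37, 7.04, 7.08, 6.50 and 7.31 in Young WT and at 4.92, 5.51, 5.66, 5.62 and 5.61 in Young *Rage-/-* mice. In Old WT mice *Stat2* lay between 5.35 and 5.63, and in Old *Rage-/-* mice between 4.71 and 6.21. Every Young WT mouse was above every other Young or Old mouse. Its probe was above background in 1 of 5 Young *Rage-/-*, 4 of 5 Old WT and 3 of 6 Old *Rage-/-* mice. Its age shift was 1.85 ± 0.33 (adjusted p = 0.012), and 0.30 with the authors' values.

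*Irf7*, which drives interferon gene induction, had a shift of 2.49 ± 0.41 (adjusted p = 0.0047). It was above background in 4 of 5 Young WT mice and in no Young *Rage-/-* mouse, where the bound on the fold is at least 2.32-fold lower. That bound sets the Young WT mean against the lowest signal of a detected probe on each Young *Rage-/-* array. *Irf9*, the DNA-binding partner of STAT2, lay nearest to the threshold with 1.51 ± 0.32 (adjusted p = 0.0499). The next probe in order, outside the threshold, was at 0.0543.

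**Figure D2:**
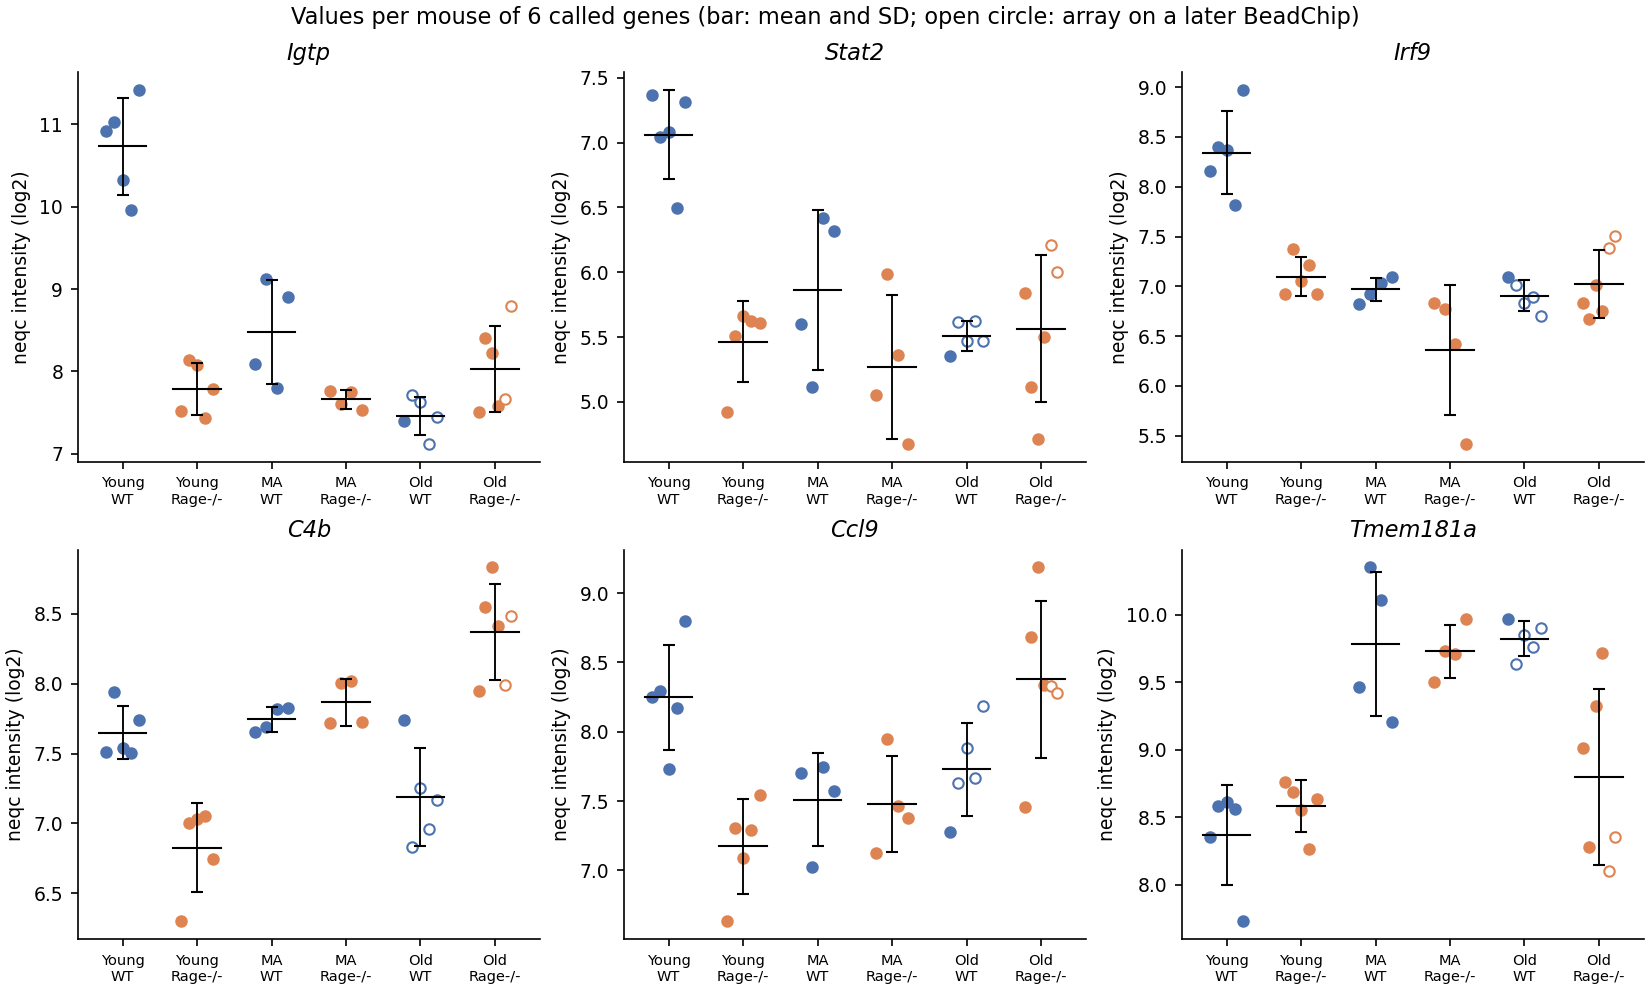
Log2 intensity (y axis) per mouse in the 6 groups for 6 called genes, with WT in blue, *Rage-/-* in orange, the mean and SD as bars and open circles for arrays on the later BeadChips. *Igtp*, *Stat2* and *Irf9* were highest in Young WT, *C4b* and *Ccl9* had their highest mean in Old *Rage-/-*, and *Tmem181a* was higher in Old WT than in either Young group.

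Antiviral proteins and regulators of the response gave 6 called genes. *Ifit3*, which binds viral RNA together with other IFIT proteins, was at 10.04 ± 0.64 in Young WT and 8.28 ± 0.22 in Young *Rage-/-* mice. In Old mice *Ifit3* was at 8.03 ± 0.26 in WT and 8.55 ± 0.25 in *Rage-/-* mice. The age shift was 2.27 ± 0.42 (adjusted p = 0.014). The near-identical *Ifit3b* has no tested probe, and signal from it cannot be told apart from that of *Ifit3*.

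*Usp18*, which removes ISG15 and dampens interferon receptor signalling, had a shift of 2.36 ± 0.49 (adjusted p = 0.039). *Lgals3bp*, a secreted glycoprotein, had 1.87 ± 0.31 (adjusted p = 0.0062), and *Parp14*, an ADP-ribosyltransferase, had 1.36 ± 0.28 (adjusted p = 0.039). *Ifi27*, a mitochondrial interferon-induced protein, had 1.37 ± 0.28 by its brighter probe (adjusted p = 0.039) and 1.08 by its other (adjusted p = 0.088). *Dtx3l* had 1.12 ± 0.23 (adjusted p = 0.039) by its brighter probe, while a dim one detected on 8 arrays had 0.19 (adjusted p = 0.94). In the 21 fits that each left out 1 mouse, *Usp18* was called in 3, *Parp14* in 7, *Ifi27* in 5 and *Dtx3l* in 3.

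Genes of antigen presentation and immune contact followed. *Nlrc5*, the transactivator of MHC class I genes, was detected in 5 of 5 Young WT and 1 of 5 Young *Rage-/-* mice, and its shift was 2.22 ± 0.34 (adjusted p = 0.0024). *H2-Q5*, a class I gene, had 1.41 ± 0.23 (adjusted p = 0.0040). Its Young difference was -1.48 ± 0.16 and its Old difference -0.07 ± 0.17. *Cd274*, the checkpoint ligand PD-L1, had 1.94 ± 0.35 (adjusted p = 0.012). *Cd72*, a B cell receptor inhibitor, had 1.62 ± 0.27 (adjusted p = 0.0051), and *Fcgr4*, an activating receptor for IgG on myeloid cells, had 2.30 ± 0.48 (adjusted p = 0.042). The *Cd72* probe was detected on 8 of 29 arrays, and with the authors' values its shift was 0.20 and not called (adjusted p = 0.063). In bulk tissue, fewer cells of a type and less RNA per cell cannot be told apart.

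*Vmn1r65*, annotated as a vomeronasal receptor, had a shift of 3.10 ± 0.37 (adjusted p = 0.00017), and of 0.97 with the authors' values. Its probe was at 9.10, 9.01, 7.76, 7.45 and 9.64 in the Young WT mice and no higher than 5.96 in any Young *Rage-/-*, Old WT or Old *Rage-/-* mouse. It was above background in 2 of 5 Young *Rage-/-*, 4 of 5 Old WT and 2 of 6 Old *Rage-/-* mice, so the size of its shift rests in part on values not above background. *Gm4951*, a predicted gene, had 1.56 ± 0.32 (adjusted p = 0.039). The 3 probes without a gene name had shifts of 1.61, 2.04 and 1.68, and each was highest in Young WT mice. ILMN_2534207 and ILMN_2593196 are 2 of them.

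The 6 probes called as rising with age in *Rage-/-* mice were those of complement C4, a chemokine, an adhesion molecule and *Plac8*. *C4b*, a component of the classical complement pathway, was at 7.51, 7.94, 7.54, 7.50 and 7.74 in Young WT and at 6.30, 7.0, 7.03, 7.05 and 6.75 in Young *Rage-/-* mice. In Old WT mice it was at 7.74, 6.83, 7.25, 6.96 and 7.17, and in Old *Rage-/-* mice it ran from 7.95 to 8.83 with a median of 8.45. Neither age showed an overlap between genotypes, and the direction turned. *C4b* was called in both ages, lower in Young *Rage-/-* mice (-0.85 ± 0.18, adjusted p = 0.020) and higher in Old ones (0.98 ± 0.18, adjusted p = 0.044). The age shift was 1.83 ± 0.25 (adjusted p = 0.00041).

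Both probes of *C4a*, a near-identical copy of *C4b*, had shifts of 1.64 ± 0.30 and 1.92 ± 0.37 (adjusted p = 0.014 and 0.021), and signal of the copies cannot be told apart. *C4a* rose by 1.77 and 2.0 from Young to Old in *Rage-/-* mice (adjusted p = 6.3e-05 and 0.00016) against 0.14 and 0.08 in WT mice. *Icam1*, to which leukocytes adhere on endothelium, had a shift of 1.26 ± 0.25 (adjusted p = 0.025), and *Ccl9*, a myeloid cell chemokine, had 1.69 ± 0.35 (adjusted p = 0.039). In fits without surrogate variables both calls were lost within BeadChips (adjusted p = 0.636 for *Icam1* and 0.0733 for *Ccl9*). They were also lost with the BeadChip as a random block (0.203 and 0.0701) and as a fixed block.

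*Plac8*, a cysteine-rich protein of immune cells, had a shift of 1.69 ± 0.27 (adjusted p = 0.0040). It was called higher in Old *Rage-/-* mice at 1.12 ± 0.20 (adjusted p = 0.035). The plain Old means lay closer, at 5.63 ± 0.54 in WT and 6.18 ± 0.76 in *Rage-/-* mice. Only Old *Rage-/-* mice 5 and 6, both on a later BeadChip, were above every Old WT mouse. The other Old *Rage-/-* mice ran from 5.33 to 5.98, within the Old WT range. In fits without surrogate variables the shift was not called with the BeadChip as a random block (adjusted p = 0.218). It was called with the fixed block (0.0039) and within BeadChips (0.040). *Plac8* was above background in no Young *Rage-/-* mouse and in 1 of 5 Young WT mice. The bound on its Young fold is under 1, so no fold is given. In Old mice it was detected in 4 of 5 WT and 3 of 6 *Rage-/-* arrays.

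The 2 negative shifts came from probes called as rising from Young to Old in WT mice, whose 2 ages shared no BeadChip. *Pisd-ps3*, a pseudogene of phosphatidylserine decarboxylase, was at 8.73, 8.0, 7.27, 7.75 and 6.99 in Old WT mice and at 7.07, 5.44, 6.91, 6.87, 5.30 and 5.48 in Old *Rage-/-* mice, with 1 mouse of each genotype overlapping. The difference was -1.96 ± 0.22 in Old mice (adjusted p = 2.5e-05) and 0.33 ± 0.21 in Young mice (adjusted p = 0.66), a shift of -2.29 ± 0.29 (adjusted p = 0.00023). In fits without surrogate variables the call was lost with the BeadChip as a fixed block (adjusted p = 0.479), as a random block (0.204) and within BeadChips (0.0735). Signal of related copies may be included. *Tmem181a*, a membrane protein gene, rose by 2.06 from Young to Old in WT mice (adjusted p = 8.6e-05) and by an estimated 0.61 in *Rage-/-* mice (adjusted p = 0.12), a shift of -1.45 ± 0.29 (adjusted p = 0.027).

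**Figure D3:**
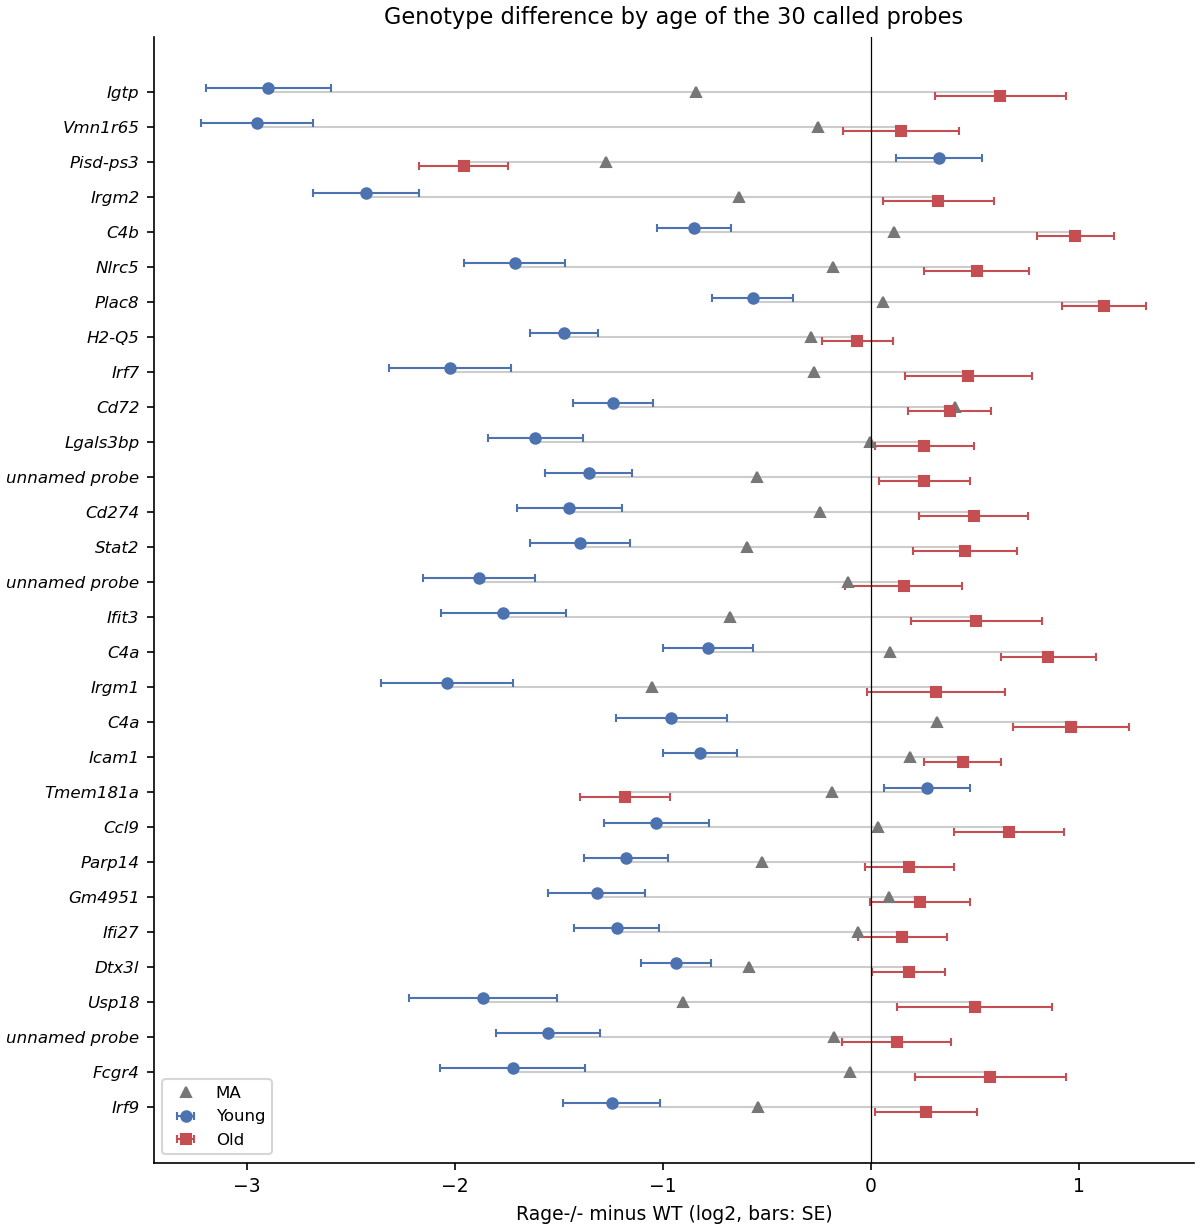
*Rage-/-* minus WT difference (x axis, log2, bars are SE) of the 30 called probes in Young (circles) and Old mice (squares), with the MA estimate as triangles, ordered by p of the age shift. The Young estimate is below 0 for 28 probes, and the Old estimate is above 0 for 27 of those 28.

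The 8 MA mice were not part of the contrast. Their *Rage-/-* minus WT estimate lay between the Young and the Old estimate for 27 of the 28 positive probes, with a median of -0.21 and a range from -1.05 to 0.40. The probes were chosen for a wide gap between the Young and the Old estimate, mostly on opposite sides of 0. An MA estimate near 0 would also lie in that gap, so the count does not show a course with age. Of the 30 probes only *Pisd-ps3* was called in MA mice, at -1.27 ± 0.23 (adjusted p = 0.0062), where 1.9% of all probes were called. Among the 22 probes highest in Young WT, 1 MA WT mouse, number 4, was the highest of the 4 for 15. The share of all probes for which it was so was not counted. The MA genotypes lay on different BeadChips, so genotype and BeadChip cannot be told apart in them.

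Of the 26 named genes, 14 were in the interferon or MHC lists and 7 in none of the pathway lists. The lists were chosen with earlier results of these data known. Their counts, here and below, therefore describe the members and are no independent support. Of 31 measured interferon-induced antiviral effectors, 6 were called, all with a positive shift, and 23 had an unadjusted p under 0.01 in that direction, against 1.74% of all probes. None of the 31 was negative, and the median shift was 1.12. Of all 13277 tested probes, 6800 had a positive estimate, to be set beside the sign counts of the lists. Among the 23 were *Isg15*, a ubiquitin-like modifier (1.61), *Mx2*, a dynamin-like GTPase (1.56), *Oas2* and *Oasl2*, sensors of double-stranded RNA or their relatives (1.42 and 1.66), and *Ifitm3*, which blocks virus entry (1.10). None of these 5 passed the adjusted test (adjusted p = 0.063 to 0.20). *Adar*, the RNA-editing enzyme, had the smallest shift of the list, 0.14.

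The mean log2 intensity of the 31 effectors in each mouse shows where the list moved. It was lowest at 8.01, had a median of 8.69 and reached 8.84 in Young WT mice, and it ran from 7.29 to 7.71 in Young *Rage-/-* mice. In Old WT mice it ran from 7.36 to 7.63 and in Old *Rage-/-* mice from 7.43 to 7.75. The 4 groups thus held 1 group without overlap with the rest, Young WT. In MA mice it ran from 7.23 to 8.10 in WT and from 7.12 to 7.62 in *Rage-/-*. The list's median difference between genotypes was -0.95 in Young and 0.19 in Old mice.

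Of 9 measured interferon-inducible GTPases, 2 were called and 8 had an unadjusted p under 0.01, all with a positive shift, and the median was 1.55. The guanylate-binding proteins *Gbp2*, *Gbp3*, *Gbp7* and *Gbp10*, which break pathogen membranes, had shifts of 1.11, 1.55, 1.63 and 1.30, none called. The exception at 0.28 was the brighter *Irgm1* probe. Of 18 measured receptors and signal proteins, 3 were called and 12 were positive, with a median of 0.23. *Irf1*, a factor induced by interferon gamma, had 0.75, and *Ptpn6*, a phosphatase of immune cells, had 0.89, both with an unadjusted p under 0.01. The median of this list changed with the number of probes that passed the detection filter, to 0.12 when detection was required on 75% of arrays.

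Of 21 measured MHC class I genes, 2 were called, 8 had an unadjusted p under 0.01 and all were positive, with a median of 0.61. Beside *Nlrc5* and *H2-Q5* these 8 were *B2m*, the light chain (0.82), *H2-D1* (0.80), *H2-Q7* (0.75), *H2-T23* (1.21), *Tap2*, a peptide transporter (0.67), and *Psme2*, a proteasome activator (0.81). H2 genes are alike in sequence, and their probes may share signal. Of 10 measured MHC class II genes none was called. Their median was 0.26 and turned to -0.021 without surrogate variables, and *H2-DMb2*, which loads peptides, had 0.94 (unadjusted p = 0.0032).

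Complement had 12 measured genes, of which the 2 C4 genes were called and 7 had an unadjusted p under 0.01, all positive, with a median of 0.73. *C1qa*, *C1qb* and *C1qc*, chains of the first component made by macrophages, had 1.56, 0.97 and 0.82. *Cfp*, properdin, had 0.93, and *Serping1*, the C1 inhibitor, had 0.64. Of 20 chemokine and adhesion genes 3 were called (*Ccl9*, *Icam1* and *Cd274*) and 16 were positive, with a median of 0.46. *Ccl8*, a monocyte chemokine, had 1.26 without passing the adjusted test, and *Pecam1*, an endothelial adhesion molecule, had 0.54.

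**Figure D4:**
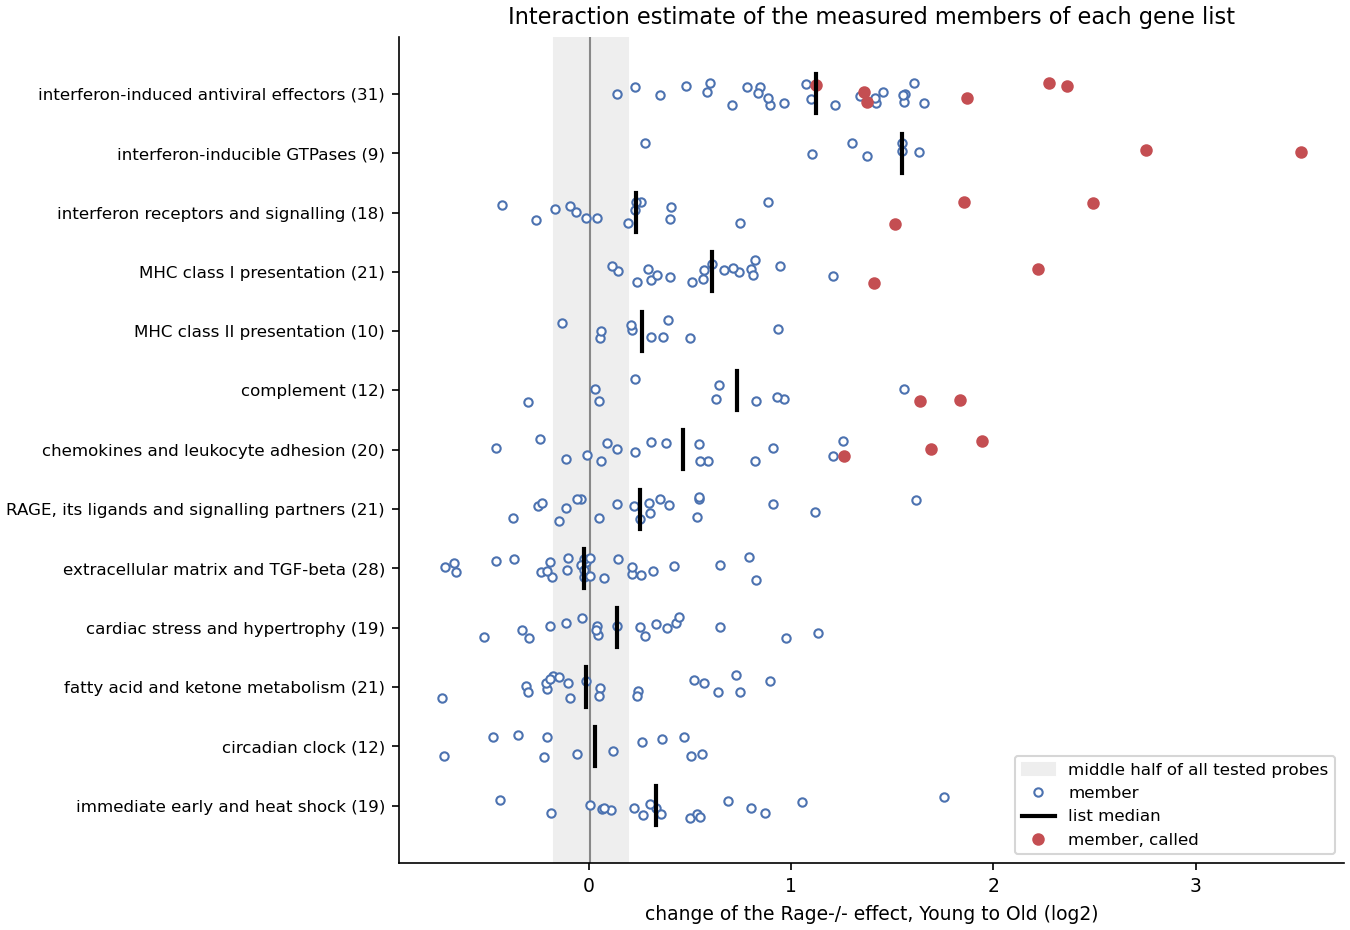
Age shift of the *Rage-/-* effect (x axis, log2) of each measured member of 13 gene lists, with the number measured in brackets, red points for called members, black bars for list medians and a grey band for the interquartile range of all tested probes. Medians run from -0.02 for extracellular matrix genes to 1.55 for the GTPases.

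The other 6 lists had no called member. RAGE ligands and signalling partners had 21 measured genes, 14 positive (against 6800 of all 13277 probes), a median of 0.26 and none with an unadjusted p under 0.01. *S100a8* and *S100a9*, ligands that neutrophils carry, had 1.62 and 1.12 with adjusted p = 0.62 and 0.69. Extracellular matrix genes had a median of -0.02 over 28, with *Lox*, which crosslinks collagen, at 0.79 and *Lum*, a collagen-binding proteoglycan, at -0.71. Unadjusted p under 0.01 with a negative shift was found in 0.972% of all probes.

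Cardiac stress genes had a median of 0.14 over 19 measured, with *Nppb*, the natriuretic peptide of strained ventricle, at 1.13 (adjusted p = 0.39). Genes of fatty acid and ketone use had -0.01 over 21, with *Acot2*, a mitochondrial thioesterase, at 0.75 and *Bdh1*, a ketone body enzyme, at -0.72. Clock genes had 0.03 over 12. Immediate early and heat shock genes had 0.34 over 19, 17 of them positive, with *Hsp90aa1*, a chaperone, at 1.06 (adjusted p = 0.17).

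Markers of other cells gave no call. The 6 measured macrophage markers of 8 had summed intensities of 1100 to 1610 in Young WT, 755 to 1310 in Young *Rage-/-*, 1090 to 1400 in Old WT and 786 to 1350 in Old *Rage-/-* mice, with overlap at each age. Their median shift was 0.16, and *Cd14*, a receptor for bacterial lipid, had 0.83. No marker of T and NK cells, B cells or adipocytes passed the detection filter.

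The 3 measured erythroid markers of 7 separated the genotypes in Young mice. Their summed intensity ran from 3200 to 8820 in Young WT and from 16800 to 21900 in Young *Rage-/-* mice, without overlap. In Old mice it ran from 3950 to 31200 in WT and from 5380 to 33600 in *Rage-/-* mice. The 3 neutrophil markers of 8 ran from 96.6 to 189 in Young WT, 68.8 to 118 in Young *Rage-/-*, 133 to 1100 in Old WT and 153 to 3230 in Old *Rage-/-* mice. The part of these cells in the age shift was not tested.

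Chromosome 17, which carries *Ager* and the MHC, held 5 of the 27 named called probes, those of *C4b*, *C4a* (2), *H2-Q5* and *Tmem181a*, against 5.02% of the named probes tested. *C4b* lies 8 protein-coding genes from *Ager* in the RefSeq order, and *Tmem181a* 491. Whether sequence near *Ager* differs between the genotypes was not tested.

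BeadChips held the groups unevenly. Young WT mouse 5, Young *Rage-/-* mouse 5 and 4 Old *Rage-/-* mice shared 1 BeadChip, and there Young WT mouse 5 was the highest of the 6 arrays for all 22 probes highest in Young WT. Those 22 have their highest mean in Young WT, and mouse 5 was the highest Young WT mouse for 18 of them. The count therefore follows largely from that choice and is no added evidence. A fit within BeadChips used the Young and Old arrays whose BeadChip held both genotypes of that age. Its Old arrays were 3 WT and 2 *Rage-/-* mice on 1 later BeadChip. Its Young arrays were 1 WT and 1 *Rage-/-* mouse on the BeadChip just named and 4 WT and 2 *Rage-/-* mice on another. It called 19 probes, 14 of them among the 30. For 23 of the 30 the estimate was larger in size than in the fit of all arrays, but its Old side covers these few mice only. Leaving out the later BeadChips, a fit added after seeing the data that kept the surrogate variables, left 1 Old WT mouse, which is assumed to vary like the mice of the other groups. Then no probe was called, with 1377 at an unadjusted p under 0.05, and the 30 probes had adjusted p from 0.0891 to 0.543. All 30 had the same sign as before, which is only a description, since the remaining arrays also chose the probes. The effect of the later BeadChips was not tested by this fit.

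**Figure D5:**
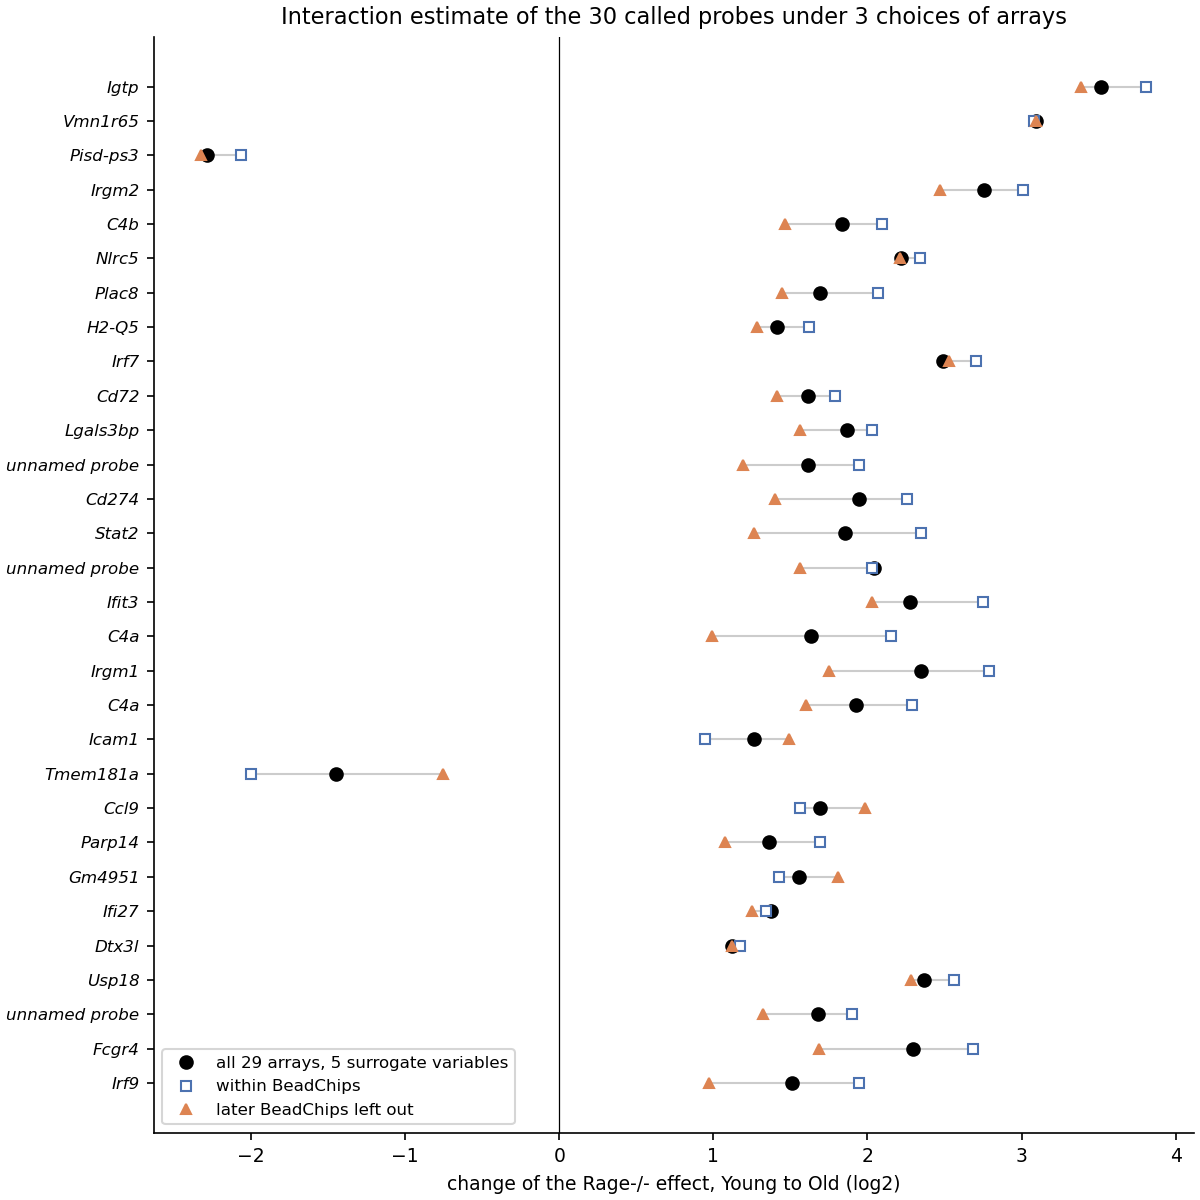
Age shift of the *Rage-/-* effect (x axis, log2) of the 30 called probes in the fit of all 29 arrays (black circles), in a fit within BeadChips (open squares) and without the later BeadChips (triangles). All 30 have the same sign in the 3 fits, which share arrays.

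Single mice mattered for the count. Without Young *Rage-/-* mouse 5 the test called 10 probes, without Old *Rage-/-* mouse 6 it called 11, without Young WT mouse 5 it called 13, without Old *Rage-/-* mouse 5 it called 16, without Young WT mouse 2 it called 18 and without Young WT mouse 4 it called 74. Of the 30 probes, 9 were called whichever of the 21 mice was left out (*Igtp*, *Vmn1r65*, *Pisd-ps3*, *Irgm2*, *C4b*, *Nlrc5*, *Plac8*, *H2-Q5* and *Cd72*). Of these 9, only 4 (*Igtp*, *Vmn1r65*, *Irgm2* and *C4b*) were also called in all 3 fits that took account of the BeadChip without surrogate variables, a fixed block, a random block and within BeadChips. Of all 30 probes, the fixed block called 8, the random block 13 and the fit within BeadChips 14. The fixed block and the fit within BeadChips gave the same estimate for each of the 30 probes. They differed only in the estimate of the spread, so they are not separate support. The count called lower or higher among the 30 in Young mice fell from 24 to 11 without Young WT mouse 5 and to 5 without Young *Rage-/-* mouse 5.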

How the data were processed

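The deposited bead intensity of each probe and array was exported by the authors with GenomeStudio 2011.1, without background correction. The detection score beside it holds, as deposited, 1 minus the detection p-value of that software. The authors' own log2 values were made in lumi (R 4.0.2) with its variance-stabilizing transform followed by robust splines, and they were used as an alternative. No genome build is given in the sources used here.

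Of 45281 probes, 13277 were kept, those detected (p under 0.01) on 25% or more of the 29 arrays. The platform's annotation gives 11504 of them 1 gene, 6 several genes and 1767 no gene, for 8189 genes in all. Background correction, quantile normalization and log2 used neqc of limma 3.58.1 (R 4.3.3, offset 16). The limma model held the 6 groups and 5 of 7 surrogate variables, with variances moderated by empirical Bayes. The surrogate variables came from code written for this work, which starts from singular vectors of the residuals and reweights the probes over 5 rounds. On simulated data with known shifts every changed probe that was called had the right sign, but not all of the smaller shifts were called and the share of false calls was above the nominal level, so calls near the threshold are less sure than their adjusted p states. Arrays correlated at 0.812 to 0.993 and no pair was identical. Their number limits the precision.

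Groups come from the sample titles, 1 mouse each. Whether any mice shared a litter or cage is not given. Named genes are the called probes with 1 symbol, and list members that were called or had an unadjusted p under 0.01; a few others are named with their values as examples. In the lists the brightest probe stands for its gene. The members and gene lists were chosen with earlier results of these data known, and no list was tested as a set. Alternatives changed the normalization, the surrogate variables, the arrays fitted, the detection filter, the BeadChip term, the replicate number, the variance prior and single mice. The BeadChip as a random block beside the surrogate variables, and the later BeadChips left out with those variables kept, were added after seeing the data.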

Additional observations from a re-analysis of the deposited data

Results flagged for a closer look

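The *Rage-/-* effect differed between Young and Old mice, by the limma test of the difference itself, for 30 probes. The age shifts above 2 on the log2 scale were 3.52 for *Igtp*, 3.10 for *Vmn1r65*, 2.75 for *Irgm2*, 2.49 for *Irf7*, 2.36 for *Usp18*, 2.35 for *Irgm1*, 2.30 for *Fcgr4*, 2.27 for *Ifit3*, 2.22 for *Nlrc5* and 2.04 for the unnamed probe ILMN_2593196. Those between 1.6 and 2 were 1.94 for *Cd274*, 1.92 and 1.64 for the *C4a* probes, 1.87 for *Lgals3bp*, 1.85 for *Stat2*, 1.83 for *C4b*, 1.69 for *Plac8*, 1.69 for *Ccl9*, 1.68 and 1.61 for the other 2 unnamed probes and 1.62 for *Cd72*. The rest were 1.56 for *Gm4951*, 1.51 for *Irf9*, 1.41 for *H2-Q5*, 1.37 for *Ifi27*, 1.36 for *Parp14*, 1.26 for *Icam1*, 1.12 for *Dtx3l*, -1.45 for *Tmem181a* and -2.29 for *Pisd-ps3*.

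A single mouse stood far from the others of its group in 10 of 180 sets of values, and chance gives about 1 in 20. Of these, 4 were Old WT mouse 2, the only Old WT mouse outside the later BeadChips. It was at 7.55 for ILMN_2534207 (others 6.63 to 6.83), 8.49 for *Dtx3l* (6.87 to 7.22) and 7.07 for *Fcgr4* (5.75 to 6.12), and low at 5.88 for ILMN_2593196 (6.35 to 6.50). In Young *Rage-/-* mice, mouse 1 was at 4.92 for *Stat2* (5.51 to 5.66) and mouse 5 at 7.91 for *Dtx3l* (8.73 to 8.96). Old *Rage-/-* mouse 6 was at 8.23 for the remaining unnamed probe (6.95 to 7.38). In MA mice, WT mouse 3 was at 6.72 for *Lgals3bp* (7.63 to 7.66), and *Rage-/-* mouse 4 was at 5.52 for *Gm4951* (5.30 to 5.33) and at 5.48 for *Usp18* (6.90 to 7.18).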

How the results depend on the processing

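The 30 probes kept their direction in every alternative that tested them, while the number called and the sizes moved (with the authors' values *Irf7* 0.42, *Nlrc5* 0.39, *C4b* 0.65 and *Plac8* 0.31). The reported fit called 30 probes, 28 higher and 2 lower. The authors' normalized values gave 67 (58 higher, 9 lower), log2 with quantile normalization 82 (70 and 12), no surrogate variables 17 (17 and 0), 7 surrogate variables 47 (43 and 4), the Young and Old arrays alone 20 (20 and 0) without and 42 (39 and 3) with surrogate variables, detection on 75% of arrays 19 (17 and 2) of 9486 probes, no detection filter 21 (18 and 3) of 45281, BeadChip as a fixed block 11 (11 and 0), BeadChip as a random block 14 (14 and 0, correlation 0.247), within BeadChips 19 (17 and 2), and robust variances with a trend 57 (50 and 7). With a random BeadChip block beside the surrogate variables it was again 30, the same probes. Without the later BeadChips 0 probes were called by limma, with 676 at an unadjusted p under 0.05 without and 1377 with surrogate variables. Leaving out each mouse in turn gave 10 to 74 calls, 9 to 65 higher and 1 to 9 lower. The cause of these moves was not tested, except that leaving out the later BeadChips leaves 1 Old WT mouse.

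Among the 30 probes, 24 were called in Young mice, 4 in Old mice, 24 and 6 with age in WT and in *Rage-/-* mice and 1 in MA mice. The Old count became 6 with the authors' values, 1 without surrogate variables, 1 in the Young and Old arrays alone, 2 there with surrogate variables, 2 with either detection filter, 1 with each BeadChip block without surrogate variables, 1 within BeadChips, 0 without the later BeadChips and 1 to 4 with a mouse left out. The age count in WT became 11 with the fixed BeadChip block, 3 and 0 without the later BeadChips (without and with surrogate variables), and 12 to 24 with a mouse left out. That in *Rage-/-* mice became 3 with the fixed block, 0 without the later BeadChips with surrogate variables kept, and 5 to 7 with a mouse left out. The Young count became 15 in that last setting and 5 to 26 with a mouse left out. The MA count became 0 without surrogate variables, with either BeadChip block and without the later BeadChips, 3 with 7 surrogate variables and 1 to 2 with a mouse left out.

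With a replicate block (the number in the titles) 37 probes were called, 35 higher and 2 lower, 26 of them among the 30, and 2 of the 30 were called in Old mice. Same-numbered mice of different groups did not deviate together (mean r 0.0717, from -0.324 to 0.477), so the numbers were not taken to pair mice. The median of the MHC class II genes turned to -0.021 without surrogate variables, in the 29 arrays and in the 21 alike. Of the 30 probes, 12 were not above background in every Young and Old mouse, those of *Plac8*, *Irf7*, *Nlrc5*, *Cd72*, *Gm4951*, *Vmn1r65*, *Stat2*, *Irgm1*, *C4a* (2), *Pisd-ps3* and ILMN_2593196.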
